A study of Mus musculus with 2 samples.

Results

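The genes described here are natural killer (NK) cell receptors and cytotoxic granule genes, picked by a rule on gene symbols. They were chosen with earlier results of these data known. The rule takes the granzymes, the killer cell lectin-like receptors (Klra to Klrk), and the symbols Prf1, Nkg7, Srgn, Ncr1, Hcst, Cd160, Cd96, Ncam1, Styk1, Xcl1, Eomes and Tbx21 with those that start with Cd244. It found 54 genes of the 55363 listed. RNA was sequenced from whole uterus of mice of 2 genotypes at the Mettl14 locus, written f/f and d/d in the labels, with 1 library each. All females were 6 to 8 weeks old when mated with fertile males, and tissue was taken on gestational day 4, with the day of the plug as day 1. Such labels usually mean floxed (f/f) and deleted (d/d) alleles, and the f/f library was taken as the control. The Cre driver behind the d/d allele, the cells it acts in, the strain and the number of animals behind a library are not stated in any source used here.

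Natural killer cells are lymphocytes that kill target cells by releasing granules and that secrete cytokines and chemokines. Perforin opens the target cell's membrane and granzymes, a family of serine proteases, enter and cleave proteins there. Whether a cell fires is set by activating and inhibitory surface receptors, many of which bind MHC class I or stress-induced ligands. The mouse uterus holds tissue-resident NK cells and related innate lymphoid cells before implantation, and granulated uterine NK cells multiply in the decidua as it forms, where interleukin 15 from stromal cells sustains them.

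Levels are in FPKM, that is, fragments scaled to transcript length and to library depth, so that they can be compared between genes. A gene with 1 FPKM in either library, or more, counted as measured, which 16263 genes did. It was called higher or lower where the log2 ratio on FPKM + 1 of d/d over f/f reached 1 in size (2-fold). Outside this rule, a stated factor is the quotient of the FPKM values without the added 1. Such a factor is larger than the one on FPKM + 1, most so at low values. A gene can thus exceed 2-fold by it and still not be called. With 1 library per genotype there is no replicate error and no test, and every difference below is one between these libraries. The step between low values gave a depth near 17500000 fragments for f/f and near 20150000 for d/d, so that 1 FPKM over 1 kb of transcript stands for about 17.5 and 20.15 fragments. Values well under 1 FPKM therefore rest on few fragments. Mettl14 itself was 13.6 FPKM in f/f and 3.21 FPKM in d/d.

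Most of the measured killer cell genes had the lower value in d/d by at least 2-fold. Of the 37 measured members 29 were at least 2-fold lower, none was at least 2-fold higher and 8 were neither. Over all measured genes, 8.28% were lower and 10.2% were higher by the same rule. The median log2 ratio of the measured members was -2.07, beside -0.01 over all measured genes. All 37 reached 1 FPKM in f/f, and 26 of them did so in f/f alone, so that these had to be lower in d/d to some degree. Counted without that filter, 29 of the 54 members were lower, beside 2.43% of all listed genes. Dropping the filter cannot change a call, since no gene under 1 FPKM in both libraries can pass on FPKM + 1. Only the totals differ, so this count does not remove that selection. In whole tissue, fewer cells of a type and less RNA per cell cannot be told apart.

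Many of the differences were over 10-fold. Of the 37 members at 1 FPKM or more in f/f, 22 were over 10 times lower in d/d or listed at 0 there, beside 2.47% of the 15417 genes at that level in f/f. Listed at 0 in d/d were 6 of the 37 (Gzmc, Gzmd, Gzme, Gzmf, Klra3 and Klra4), beside 0.934% of those genes. In the band from 1 to under 20 FPKM in f/f, which holds 31 of the members, 23 of them were at least 2-fold lower, beside 9.9% of all genes in that band.

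**Figure D1:**
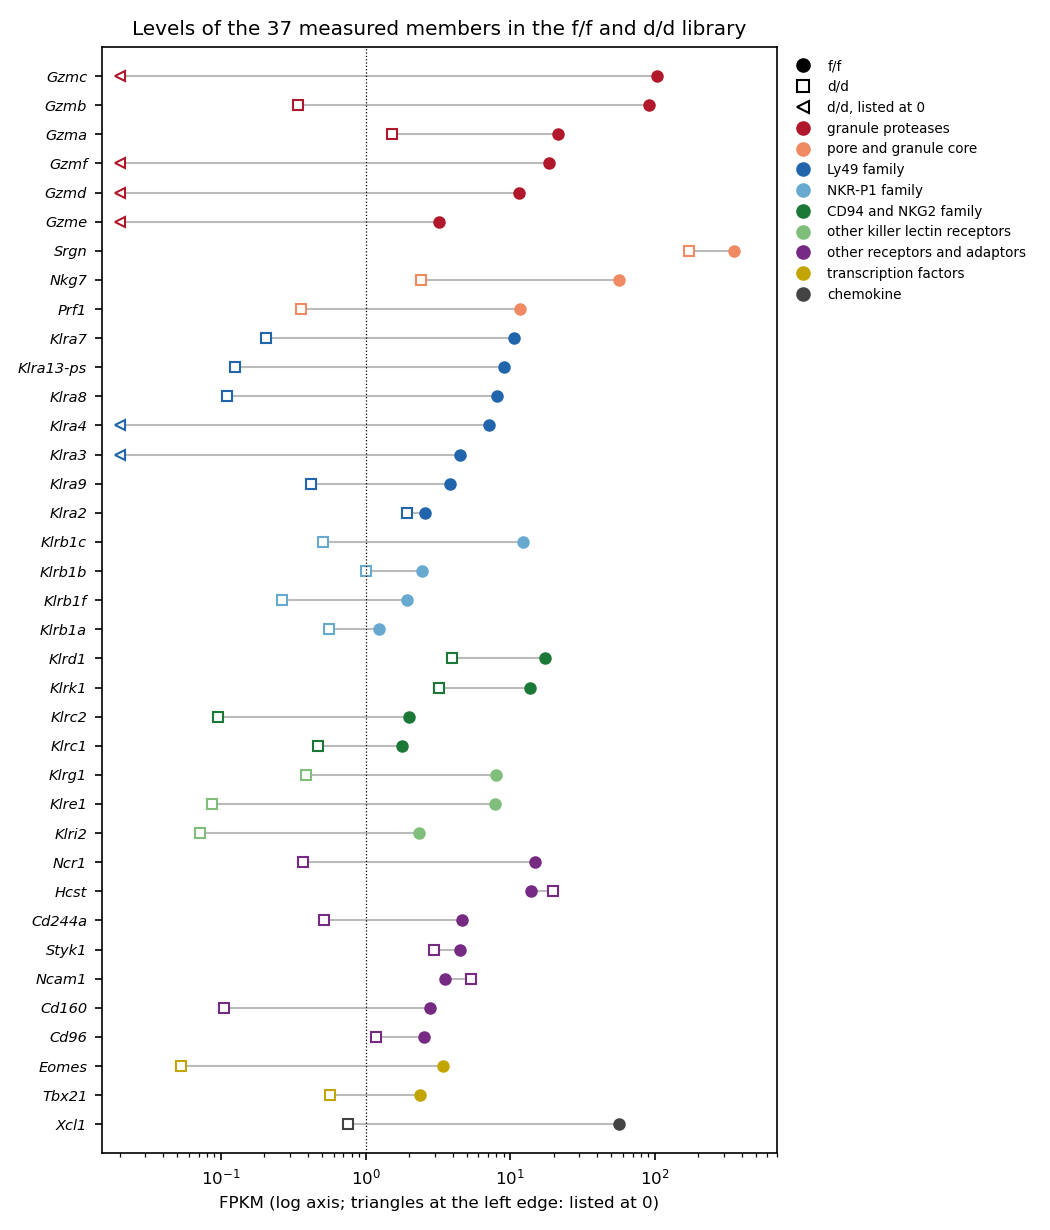
FPKM (log axis) of the 37 measured members in the f/f library (filled circles) and the d/d library (open squares, or triangles at the left edge where listed at 0), coloured by role, with 1 library per genotype and a dotted line at 1 FPKM. All members but Hcst and Ncam1 have the higher value in f/f, and Gzmc spans the widest range, from 104 FPKM to a listed 0.

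The 17 members below 1 FPKM in both libraries ranged from 0 to 0.934 FPKM in f/f and from 0 to 0.538 in d/d. Gzmn, Klrh1 and the pseudogenes Klra11-ps and Klrb1-ps1 were listed at 0 in both. Gzmg, Klra1, Klra5, Klra6, Klra10 and Klrc3 were listed at 0 in d/d only. Gzmm and Klra14-ps were below their f/f value in d/d, and Gzmk, Klra17, Klrb1, Klrg2 and Klri1 were above it. With 1 library each, these low values rest on few fragments, and no difference was called among them.

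**Figure D2:**
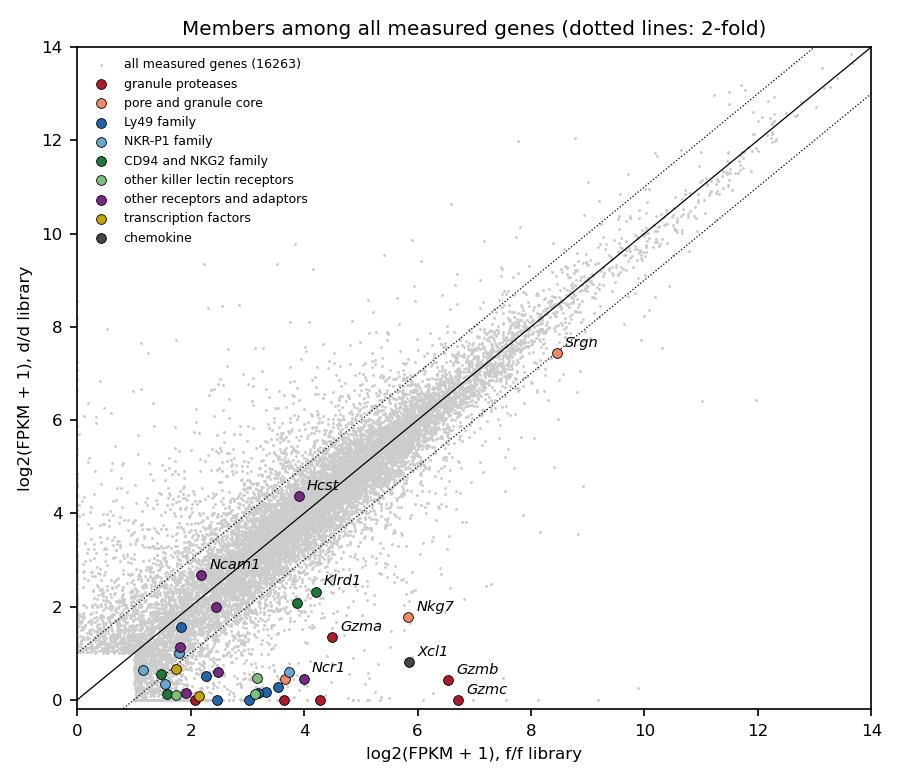
log2(FPKM + 1) in the f/f library (x axis) against the d/d library (y axis) for the 16263 measured genes (grey) and the 37 measured members (coloured by role), with the line of equality and dotted lines at 2-fold. The members lie under or near the lower dotted line, apart from a small group near equality that holds Hcst and Ncam1.

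Gzmc and Gzmb were the most abundant members of the f/f uterus after Srgn and had the largest differences of all measured members. Gzmc was 104 FPKM in f/f but listed at 0 in d/d, with a log2 ratio of -6.71 that 8 of the 16263 measured genes reached or passed, itself included. Gzmb, which cleaves after aspartate and can start apoptosis in the target cell, was 91.3 FPKM in f/f against 0.339 in d/d, 269-fold lower. Together Gzmb and Gzmc made up 21.7% of the summed FPKM of the 54 members in f/f. Gzmf was 18.4 FPKM, Gzmd 11.5 and Gzme 3.22 in f/f, and all 3 were listed at 0 in d/d. Gzma, a granzyme that cleaves after basic residues, was 21.5 FPKM in f/f against 1.53 in d/d. It was the granzyme with the highest level left in the d/d uterus. The remaining 4 (Gzmg, Gzmk, Gzmm and Gzmn) stayed under 1 FPKM in both. Gzmk and Gzmm, which many T cells also make, were 0.168 and 0.303 FPKM in f/f and 0.293 and 0.302 in d/d. Summed over all 10 granzymes, the level was 251 FPKM in f/f against 2.47 in d/d.

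Gzmb, Gzmc, Gzmd, Gzme, Gzmf, Gzmg and Gzmn lie side by side on chromosome 14 (GRCm38), all on the minus strand, from 56117626 to 56262260. They arose by gene duplication, and their likeness limits how far the single values can be trusted. The coding sequences of Gzmd and Gzme are 93.3% identical, those of Gzmd and Gzmf 83.3%, and those of Gzmb and Gzmc 75.6%. Of the 50-nt windows of the Gzmd transcript, 21.9% stand unchanged in another transcript, against 4.14% for Gzmc and none for Gzmb. The stretches below show 60 coding bases around the catalytic serine, whose codon is in capitals, from the GENCODE M21 transcripts.
Gzmb: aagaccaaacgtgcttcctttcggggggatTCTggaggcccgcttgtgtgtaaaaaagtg
Gzmc: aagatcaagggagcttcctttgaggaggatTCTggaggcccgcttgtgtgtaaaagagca
Gzmd: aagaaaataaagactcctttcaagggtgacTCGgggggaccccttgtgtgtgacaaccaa
Gzme: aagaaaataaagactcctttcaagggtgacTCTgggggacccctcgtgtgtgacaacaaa
Gzmf: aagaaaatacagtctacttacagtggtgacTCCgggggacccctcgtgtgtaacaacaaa
In this stretch Gzme differs from Gzmd at 3 of the 60 bases, Gzmf at 10, Gzmb at 24 and Gzmc at 25. Fragments can thus move between Gzmd and Gzme in the authors' estimate, whereas Gzmb and Gzmc hold mostly sequence of their own. With the chromosome 14 granzymes summed to 1 value, and the Klra, Klrb1, Klrc and Klri genes likewise, 19 of 23 resulting members were lower and none was higher.

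Perforin and the granule membrane protein Nkg7 had large differences, and the granule proteoglycan serglycin a small one. Prf1, the pore-forming protein, was 11.6 FPKM in f/f against 0.355 in d/d, 32.7-fold lower. Nkg7, which is needed for granule release, was 56.3 FPKM in f/f against 2.42 in d/d, 23.2-fold lower. Srgn, the serglycin core protein that packs proteases in granules of many leukocytes and is also made by endothelium, was 350 FPKM in f/f against 173 in d/d. Its log2 ratio of -1.01 lay at the edge of the 2-fold rule. Srgn alone made up 76.9% of the members' summed FPKM in d/d, and without it the sum was 549 FPKM in f/f against 51.8 in d/d. Endothelial markers were lower in the same library, 3 of 5 by at least 2-fold (Cdh5 among them, at 72.5 and 29.8 FPKM), with a summed level of 251 and 115 FPKM. No marker of that list was at 0. Their part in the Srgn difference was not tested.

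The Ly49 family (Klra genes) codes for lectin-like receptors that mostly bind MHC class I and that in the mouse take the role which KIR receptors have in humans. Of 14 members 7 were measured and 6 of these were lower. Klra7 (Ly49G), an inhibitory receptor, was 10.6 FPKM in f/f against 0.206 in d/d, 51.4-fold lower. Klra8 (Ly49H) and Klra4 (Ly49D) are activating receptors that signal through Tyrobp. Klra8 was 8.11 FPKM in f/f against 0.110 in d/d. Klra4 was 7.17 FPKM in f/f but listed at 0 in d/d. The inhibitory Klra3 (Ly49C) was 4.51 FPKM and listed at 0, and Klra9 (Ly49I) was 3.83 and 0.417 FPKM. Activating and inhibitory members were thus low together in d/d. The transcribed pseudogene Klra13-ps was 9.09 FPKM in f/f against 0.125 in d/d.

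The member outside that pattern was Klra2 (Ly49B), which is known from myeloid cells more than from NK cells, at 2.56 FPKM in f/f against 1.94 in d/d. Klra17 (Ly49Q), known from plasmacytoid dendritic and other myeloid cells, was 0.413 and 0.538 FPKM. Macrophage and monocyte markers were higher in d/d, 4 of 9 measured by at least 2-fold, with a summed level of 889 FPKM in f/f against 1946 in d/d and no marker at 0. Their part in the Klra2 and Klra17 values was not tested. Klra genes are near copies of each other: the coding sequences of Klra3 and Klra9 are 95.9% identical, and 33.1% of the 50-nt windows of Klra8 stand unchanged in another transcript, mostly that of Klra14-ps. For Klra2 and Klra17 no window does. Single values within the family are therefore uncertain. Their sum was 49.3 FPKM in f/f against 3.37 in d/d, of which Klra2 made up the larger part in d/d.

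The NKR-P1 family (Klrb genes) binds C-type lectins of the Clec2 family that lie among them in the genome. Of 4 measured members, 2 were lower. Klrb1c, which codes for the NK1.1 antigen by which NK cells of C57BL/6 mice are recognised, was 12.2 FPKM in f/f against 0.510 in d/d, 24.0-fold lower. Klrb1f, an activating-type receptor, was 1.92 and 0.265 FPKM. The inhibitory Klrb1b, a receptor for Clec2d, was 2.45 FPKM in f/f against 1.01 in d/d, with a log2 ratio of -0.78. Klrb1a was 1.23 and 0.560 FPKM. Those last 2 passed the rule with a pseudocount of 0.1 FPKM (log2 ratios of -1.20 and -1.01). The Klrb1b and Klrb1c gene models share 599 and 413 exonic bases with the gene model Gm44511 on the same strand, which was 2.34 FPKM in f/f against 0.319 in d/d.

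CD94 (Klrd1) pairs with NKG2 proteins (Klrc genes) to form receptors for the non-classical MHC molecule encoded by H2-T23, and NKG2D (Klrk1) binds stress-induced ligands. Klrd1 and Klrk1 were lower by smaller factors than the measured granzymes. Klrd1 was 17.4 FPKM in f/f against 3.99 in d/d, 4.37-fold lower. Klrk1 was 13.7 FPKM in f/f against 3.20 in d/d, 4.27-fold lower. Both stayed above 1 FPKM in the d/d uterus, and both are also made by subsets of T cells. Of the partners, Klrc2 (activating NKG2C) was 1.995 and 0.0955 FPKM. The inhibitory Klrc1 (NKG2A) was 1.78 and 0.466 FPKM with a log2 ratio of -0.92. It passed the rule at pseudocounts of 0.5 and 0.1 FPKM (-1.24 and -1.73) and with scaling to protein-coding genes (-1.12). Of the 50-nt windows of Klrc1, 40.3% stand in another transcript, mostly that of Klrc2.

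The other measured lectin-like receptors were all lower. Klre1, which forms heterodimers with Klri1 or Klri2, was 7.79 FPKM in f/f against 0.0861 in d/d, 90.5-fold lower. Its partner Klri2 was 2.34 and 0.0713 FPKM. Klrg1, an inhibitory receptor for cadherins found on mature NK and T cells, was 8.02 FPKM in f/f against 0.384 in d/d, 20.9-fold lower.

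Of 7 receptors and adaptors outside the lectin family, 3 were lower and 4 were neither. Ncr1 (NKp46), the receptor used to define mouse NK cells and some other innate lymphoid cells, was 14.9 FPKM in f/f against 0.368 in d/d, 40.5-fold lower. Cd244a (2B4), a receptor for Cd48, was 4.61 and 0.516 FPKM, 8.93-fold lower. Cd160, a receptor for Tnfrsf14, was 2.79 and 0.104 FPKM, 26.7-fold lower. The next 4 did not pass the rule. Cd96, a receptor for Pvr that T cells share, was 2.53 FPKM in f/f against 1.18 in d/d. Hcst (DAP10), the adaptor of NKG2D that many leukocytes make, was 13.9 and 19.6 FPKM. Styk1, a kinase-like protein also found outside blood cells, was 4.46 and 2.98 FPKM. Ncam1, the CD56 marker of human NK cells which mouse NK cells lack and which nerves make, was 3.53 and 5.39 FPKM. Nerve and glia markers were mixed: of 4 measured, 2 were lower in d/d and none was higher by the rule, with a summed level of 20.7 and 6.36 FPKM. Most of that sum was Uchl1, at 14.4 and 2.70 FPKM, and Prph was 2.67 FPKM in f/f but listed at 0 in d/d. Tubb3 had the direction of Ncam1, at 1.02 and 2.30 FPKM with a log2 ratio of 0.71. The part of nerve in the Ncam1 values was not tested.

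The paired T-box factors of the NK lineage and its hallmark chemokine were low as well. Eomes, which conventional NK cells need, was 3.42 FPKM in f/f against 0.0527 in d/d, 64.8-fold lower. Tbx21 (T-bet), which NK cells, group 1 innate lymphoid cells and type 1 T helper cells use, was 2.36 FPKM in f/f against 0.569 in d/d, 4.15-fold lower. The call of Tbx21 was lost with each library scaled to a smaller fixed total (log2 ratio -0.98), and with a pseudocount of 5 FPKM (-0.40). The library totals were already close, so under the scaling the unchanged pseudocount mainly weighs more. Xcl1, the chemokine by which NK cells draw in Xcr1-bearing dendritic cells, was 56.8 FPKM in f/f against 0.755 in d/d, 75.3-fold lower. Only 22 measured genes had a log2 ratio as low as its -5.04 or lower, itself included.

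Since these genes were low together, the 250 bases before their RefSeq starts were searched on both strands for short cores of factors known in NK cells. These were TCACAC (T-box), TGTGGT (Runx) and AGGAAG (Ets), and no match overlapped one of another motif in any member's window. RefSeq windows (GRCm38.p6) matched 45 of the 54 members by symbol, 25 of them among the 29 lower genes. For 33 of these 45, the bases just after the RefSeq start stood near the start of the GENCODE M21 transcript compared. In the rest the 2 starts may differ. The windows below belong to 5 genes picked, with their matches known, to show the motifs in granzymes, perforin, a receptor and a chemokine. Letters matched on either strand are in capitals.
Gzmb, chr14:56262335-56262584, minus strand: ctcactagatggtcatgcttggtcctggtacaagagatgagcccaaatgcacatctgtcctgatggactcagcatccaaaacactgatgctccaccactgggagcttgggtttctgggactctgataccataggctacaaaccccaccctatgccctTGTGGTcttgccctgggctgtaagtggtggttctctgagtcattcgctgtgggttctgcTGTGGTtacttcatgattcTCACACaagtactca
Gzmc, chr14:56234658-56234907, minus strand: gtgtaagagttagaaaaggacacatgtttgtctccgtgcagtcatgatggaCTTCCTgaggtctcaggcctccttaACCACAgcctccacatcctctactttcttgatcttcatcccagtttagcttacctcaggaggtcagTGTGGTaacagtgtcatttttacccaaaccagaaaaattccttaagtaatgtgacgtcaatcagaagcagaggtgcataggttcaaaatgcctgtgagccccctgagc
Ncr1, chr7:4337465-4337714, plus strand: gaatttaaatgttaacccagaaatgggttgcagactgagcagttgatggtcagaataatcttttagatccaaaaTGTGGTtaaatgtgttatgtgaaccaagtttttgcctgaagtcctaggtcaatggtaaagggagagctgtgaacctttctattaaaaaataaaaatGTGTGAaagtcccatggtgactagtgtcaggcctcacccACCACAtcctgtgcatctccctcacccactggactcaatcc
Prf1, chr10:61297586-61297835, plus strand: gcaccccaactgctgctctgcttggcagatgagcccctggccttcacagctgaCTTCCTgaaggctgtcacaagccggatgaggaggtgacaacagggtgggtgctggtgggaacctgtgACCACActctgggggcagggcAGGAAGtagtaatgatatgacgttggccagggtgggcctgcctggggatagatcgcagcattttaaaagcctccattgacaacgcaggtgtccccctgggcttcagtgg
Xcl1, chr1:164935523-164935772, minus strand: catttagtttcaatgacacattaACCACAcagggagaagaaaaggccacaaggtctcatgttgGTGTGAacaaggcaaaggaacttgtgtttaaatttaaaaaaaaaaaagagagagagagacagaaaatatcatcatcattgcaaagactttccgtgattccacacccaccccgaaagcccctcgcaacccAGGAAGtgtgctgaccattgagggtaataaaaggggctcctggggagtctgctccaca
The Runx core stood in each of these windows, which reflects how they were picked, with 2 matches each in Gzmb, Gzmc and Ncr1. The window of Klra7, whose log2 ratio of -3.26 is close to the -3.22 of Prf1, held no Runx match, and that of Eomes held none of the 3 cores. The Klra7 window (130231688 to 130231937, minus strand) lies inside its GENCODE gene model, which ends at 130233322, so bases before that model's end were not searched. Across the 25 lower members with a window, 15 (60%) held it, beside 7 of the 20 other members (35%) and 14.2% of the first windows of all 27025 genes in the table. Of those 20, 14 were under 1 FPKM in both libraries, so that they are not known to be unlike the lower ones. The Ets core stood in 12 of the 25 (48%), beside 8 of the 20 (40%) and 29.2% of all windows. The T-box core stood in 5 of the 25 (20%), beside 2 of the 20 (10%) and 12.2% of all windows. Windows of duplicated granzymes and Klr genes resemble each other and are not independent. The members' windows were lower in GC, with a median of 44% against 52% for all. None of the Ly49 windows Klra3, Klra4, Klra8 and Klra9 held any of the 3 cores.

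Genes lying among the members did not share their direction as a group. The natural killer gene complex on chromosome 6 (GRCm38, 128609227 to 131353597) holds 30 of the members, 18 of them measured, interleaved with other genes. Of these 18 members 13 were lower and none was higher. Of the 18 other measured genes in the complex and 100000 bp to either side, 4 were lower and 4 were higher, with a median log2 ratio of -0.03. The shares over all measured genes were 8.28% lower and 10.2% higher. Among the lower ones is Gm44511, which shares exonic bases with the members Klrb1b and Klrb1c and so is not independent of them. Clec2d, a ligand of Klrb1b, was 79.6 FPKM in f/f against 83.4 in d/d. Clec7a, the beta-glucan receptor dectin-1 of myeloid cells, was 5.64 and 28.8 FPKM, the highest log2 ratio of the complex at 2.17. Clec9a of cross-presenting dendritic cells was 3.53 and 1.11 FPKM, and Clec1a, an endothelial and myeloid lectin, was 6.95 and 1.72. Near the granzymes on chromosome 14, the mast cell protease Mcpt4 was the single other measured gene, at 2.59 and 0.159 FPKM. Genes of this paragraph that are not members were named after their values were seen.

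**Figure D3:**
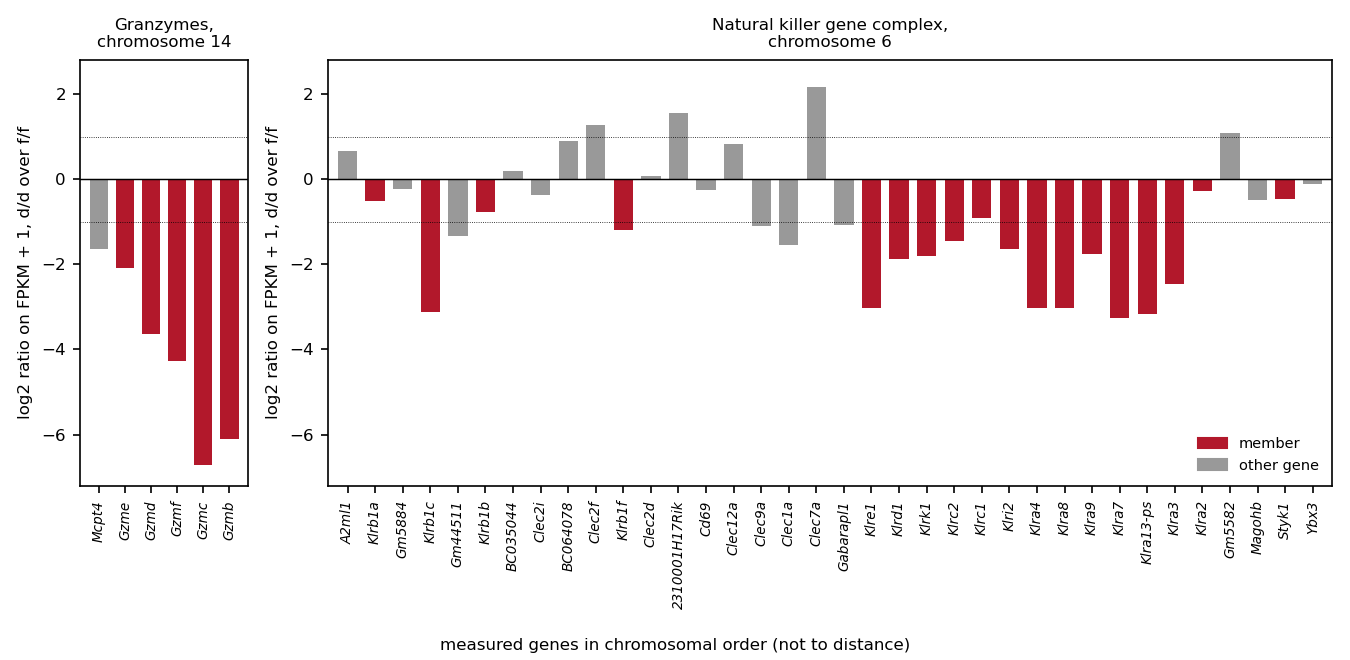
log2 ratio on FPKM + 1 of d/d over f/f for each measured gene in chromosomal order (x axis, not to distance) in the granzyme cluster and the natural killer gene complex with 100000 bp to either side, for members (red) and other genes (grey), with dotted lines at 2-fold. All 18 measured members of the complex lie below 0, while the other genes lie on both sides.

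The rest of the NK pathway was read from lists of genes outside the rule, to be set against the 8.28% lower and 10.2% higher of all measured genes. Of 17 measured genes of the interleukin 15, 12 and 18 axis, 3 were lower and 3 higher (median log2 ratio 0.06). Il2rb, the signalling chain of the interleukin 15 receptor that NK cells carry at high level, was 31.6 FPKM in f/f against 2.55 in d/d, 12.4-fold lower. Il15ra, which presents interleukin 15 to it, was 12.1 and 2.65 FPKM, and the kinase Jak1 was 273 and 95.7. Il15 itself was 92.0 FPKM in f/f against 48.4 in d/d, a log2 ratio of -0.91 that did not pass (named after its values were seen). The higher genes were Il18r1 at 0.561 and 10.2 FPKM, the feedback inhibitor Cish at 2.62 and 19.1, and the transcription factor Stat5a at 11.6 and 35.9.

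Lineage factors shared with other cells were mostly between the thresholds. Of 22 measured, 3 were lower and 1 was higher (median -0.23). Prdm1 (Blimp-1) was 18.6 FPKM in f/f against 4.89 in d/d, Klf2 was 44.2 and 16.3, and Tcf7 was 13.0 and 4.62. Ikzf2 (Helios) was higher, at 1.56 and 11.8 FPKM. Runx3, a Runx factor of cytotoxic lymphocytes, was 2.19 and 2.29 FPKM, and Nfil3, which early NK development needs, was 41.8 and 25.6 (both named after their values were seen).

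Other receptor adaptors and proximal signalling genes showed 3 lower and 2 higher of 19 (median 0.14). Lower were the kinase Lck at 15.8 and 4.19 FPKM and the adaptors Sh2d2a at 5.13 and 0.959 and Sh2d1a (SAP) at 3.14 and 0.724. The higher ones were Cd3e at 1.39 and 11.6 FPKM and Lat at 2.19 and 10.5. Tyrobp (DAP12), the adaptor of activating Ly49 receptors which myeloid cells also make, was 207 FPKM in f/f against 228 in d/d (named after its values were seen).

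Granule biogenesis and release genes, which many secretory cells use, were largely level. Of 19 measured, 1 was lower and 1 higher (median 0.20). The lower one was Ctsw, a cathepsin of cytotoxic lymphocytes, at 17.0 FPKM in f/f against 1.94 in d/d. The higher one was Ctsh at 184 and 433 FPKM. Of 9 measured inhibitors of granzymes and cathepsins, 5 were lower and none was higher (median -1.004). Ctla2a, a cysteine protease inhibitor of decidua and lymphocytes, was 4005 FPKM in f/f against 84.8 in d/d, and its relative Ctla2b was 23.4 and 8.62. Serpina3n was 112 and 3.48 FPKM. The leukocyte cystatin Cst7 was 10.1 and 3.49, and Serpinb6b was 15.1 and 7.05.

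Effector cytokines and death ligands divided. Of 12 measured, 2 were lower and 3 higher (median 0.50). The Fas ligand gene Fasl was 2.17 FPKM in f/f against 0.183 in d/d, 11.8-fold lower, and the placental growth factor gene Pgf was 16.7 and 1.91. Tnfsf10 (TRAIL) was 13.0 and 41.0 FPKM, osteopontin Spp1 was 44.0 and 106, and lymphotoxin Ltb was 8.52 and 20.5. Of 21 measured ligands of NK receptors, 3 were lower and 2 higher (median -0.13). The NKG2D ligands Raet1d and Ulbp1 were 4.93 and 0.936, and 12.9 and 5.89 FPKM. A further NKG2D ligand, Raet1e, was 1.07 and 2.03 FPKM, with a log2 ratio of 0.54 that did not pass (named after its values were seen). The Klrg1 ligands E-cadherin and N-cadherin went in opposite directions, Cdh1 at 20.8 and 154 FPKM and Cdh2 at 2.58 and 0.634. Clec2f, the other higher gene of this list, is annotated as a transcribed pseudogene and was 1.10 and 4.04 FPKM.

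Homing and residence genes had 3 lower and 5 higher of 24 (median -0.21). The chemokines Cxcl14, Cxcl12 and Cxcl10 were 196 and 68.0, 170 and 64.2, and 12.8 and 4.85 FPKM. Higher were the receptor Cxcr6 at 2.63 and 22.2 FPKM, its ligand Cxcl16 at 15.2 and 54.9, the chemokine Cx3cl1 at 5.81 and 18.1, and the integrins Itga2 at 3.46 and 18.3 and Itgam at 10.4 and 28.1. Of 23 other lymphocyte receptors, 4 were lower and 4 higher (median 0.19). Tnfrsf9 (4-1BB) was 26.2 FPKM in f/f against 2.96 in d/d, Cd7 was 22.997 and 2.75, Tigit was 3.76 and 0.483, and Thy1, which stromal cells also make, was 174 and 58.6. Higher were Pdcd1 (PD-1) at 0.430 and 4.42 FPKM, Cd226 at 2.89 and 8.43, Lilrb4a at 2.38 and 6.40, and Pilra at 1.14 and 3.70.

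Marker lists of other cell types were read beside the members. Of 10 NK and group 1 innate lymphoid markers, 8 were lower, among them all 6 that are members. Outside the members, Il2rb and Fasl were lower, as given above. The integrin Itga1 of tissue-resident cells was neither, at 11.3 and 6.11 FPKM. Itga2 (CD49b), which epithelium, fibroblasts and platelets also make, was higher, at 3.46 and 18.3 FPKM. Epithelial markers were higher for 5 of 6, with a summed level of 227 and 1498 FPKM and none at 0, and their part in the Itga2 values was not tested. General leukocyte markers were close to level, with 1 of 10 lower and none higher and a summed level of 661 FPKM in f/f against 633 in d/d. The pan-leukocyte gene Ptprc (CD45) was 29.1 and 22.7 FPKM, and the lower one was Ikzf1 at 28.6 and 7.74.

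T cell markers went the other way from the killer cell genes. Of 9 measured, 5 were higher and none was lower, with a summed level over the 14 found of 36.9 FPKM in f/f against 102 in d/d. These were Cd3g at 5.22 and 33.7 FPKM, Cd3e as given above, the gamma-delta receptor gene Trdc at 1.41 and 7.0001, Cd4 at 0.657 and 3.41, and Trac at 1.48 and 4.92. The most abundant of the list in f/f, Trbc1 and Trbc2, differed less and did not pass, at 11.4 and 16.5 FPKM and at 10.6 and 15.8. Cd3d, at 2.70 and 5.37 FPKM, did not pass either. Of the chains of CD8, the mark of cytotoxic T cells, Cd8b1 was 0.0844 and 1.16 FPKM, with a log2 ratio of 0.99 just short of the rule. Cd8a was under 1 FPKM in both, at 0.164 and 0.241. Several members are also made by T cell subsets, among them Klrd1, Klrk1, Klrg1, Cd96, Tbx21, Gzma and Gzmk, and the part of T cells in their values was not tested. Of 6 measured mast cell markers 5 were lower, with a summed level of 42.1 and 12.9 FPKM. Hdc and Kit led that sum in f/f, Hdc at 20.1 and 0.922 FPKM and Kit, which was neither, at 11.2 and 10.2. The mast cell proteases were low in both libraries: Tpsb2 at 3.25 and 0.825 FPKM, Mcpt4 at 2.59 and 0.159, Cpa3 at 2.56 and 0.335, and Cma1 at 2.39 and 0.505. Ms4a2 and Tpsab1 were listed at 0 in both libraries. Mast cells also hold Srgn, and their part in its values was not tested. B and plasma cell, macrophage and neutrophil lists had no lower gene. Of 4 measured B and plasma cell markers 3 were higher, with a summed level of 148 and 392 FPKM, mostly Jchain at 142 and 371. Of 5 measured neutrophil markers 2 were higher, with a summed level of 13.5 and 31.4 FPKM.

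Several markers of the uterine wall were lower in the same library as the killer cell genes. Of 6 stromal markers 4 were lower and none was higher, with a summed level of 3401 FPKM in f/f against 1935 in d/d. Among them, Pdgfra was 92.5 and 25.03 FPKM and Hoxa10, a factor of the decidualizing stroma, was 357 and 63.7. Of 5 smooth muscle markers 2 were lower and none was higher, with a summed level of 3305 and 2113 FPKM. No gene of either list was at 0 in either library, and their part in the members' values was not tested.

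**Figure D4:**
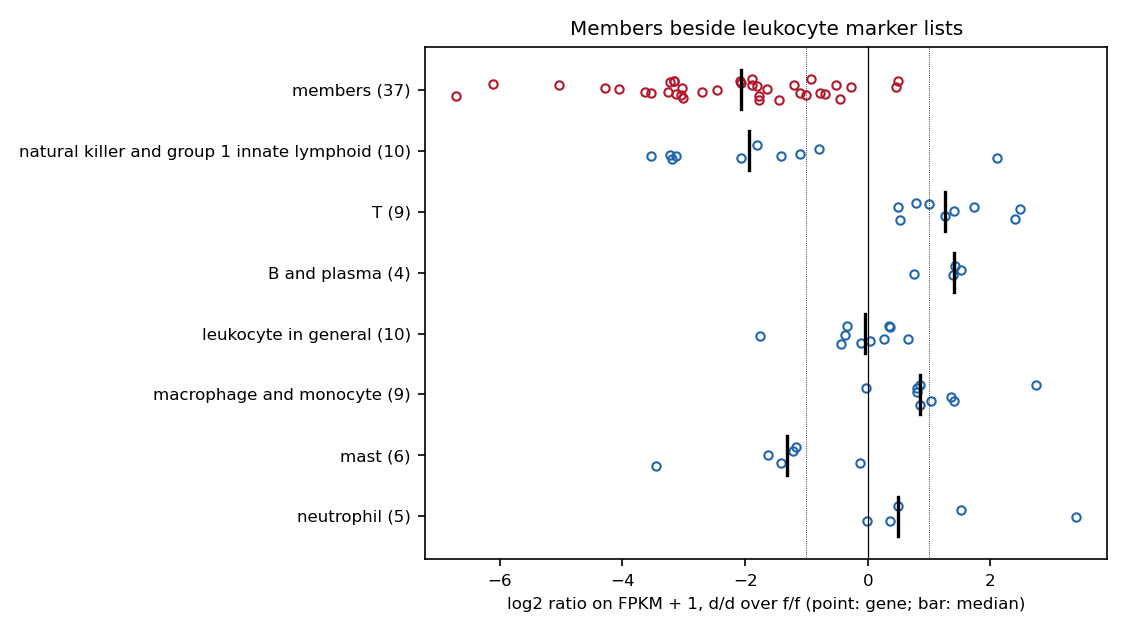
log2 ratio on FPKM + 1 of d/d over f/f (x axis, 1 open point per measured gene, black bar at the median, dotted lines at 2-fold) for the 37 measured members and for marker lists of leukocyte classes, with the number of measured genes in brackets. The members and the NK markers lie mostly below -1 with medians of -2.07 and -1.94, the general leukocyte markers lie around 0, and the T cell markers lie above 0 with a median of 1.25. Most of the NK markers are themselves members, so that list is not independent of them.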

How the data were processed

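Whole uterus RNA of 1 f/f and 1 d/d library was sequenced by the authors after TRIzol extraction and TruSeq library preparation, per the labels' protocols. The deposited values are FPKM. The submitters' processing notes name HISAT2 2.2.1, Cufflinks 2.2.1 and mm10. The annotation release, strandedness and read length are not stated in any source used here.

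Both files list the same 55483 rows, and rows sharing a symbol were summed to 55363 genes. Members were found by symbol, each with 1 row. The log2 ratio was taken on FPKM with a pseudocount of 1. No test was possible with 1 library per group. The members and gene lists were chosen with earlier results of these data known, and a list's direction is no independent evidence. Named genes were the members at 1 FPKM or more and, per list, up to 6 genes past 2-fold by size of the log2 ratio, with other names said to be so. Members under 1 FPKM in both libraries were planned by name only where listed at 0 in both. The rest of them were named beyond that plan. The symbols Raet1a, Raet1b, Raet1c, H60a and Tcrg-C1 had no row.

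Positions and transcripts come from GENCODE M21 (GRCm38, also called mm10), which held 55137 of the row IDs and all 54 members; whether the authors counted on this release is unknown. Promoters come from RefSeq (GRCm38.p6), the first window of each gene. Depth was the fragment number at which the lowest 15% of values of genes with 1 transcript of 2000 nt or more came nearest to whole fragments; 84.5% of 335 values in f/f and 84.7% of 334 in d/d lay within 0.1. It used full transcript length, so it is approximate. Coding sequences were aligned globally in Biopython 1.88 under Python 3.11.15. The ratio and count code was tested on simulated data, with changes planted in well-expressed genes only. Changes at very low values, where many members lie in d/d, were not tested, nor were the sequence and depth steps. No protein sequences were used. Alternatives covered pseudocount, filter, scaling, fold and summed paralogs.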

Additional observations from a re-analysis of the deposited data

How the results depend on the processing

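No member was at least 2-fold higher in d/d under any of the 11 alternatives run. The count of lower members, 29 of 37, was 19 at a 4-fold rule, 19 of 21 with a filter of 5 FPKM, 18 with a pseudocount of 5 FPKM and 19 of 23 with paralog families summed, which was chosen after seeing the data. Under the other alternatives it lay between 28 and 33. The median log2 ratio of -2.07 was -3.83, -2.82 and -0.997 with pseudocounts of 0.1, 0.5 and 5 FPKM, -3.15 with a filter of 5 FPKM and -1.15 with none. A median was called moved when it shifted by over 1.5-fold. No named member that was lower changed sign. Scaling to protein-coding totals shifted the median of all genes to -0.12 and called 30 members lower. Members near 1 FPKM in f/f rest on few fragments, and values of near-identical paralogs are uncertain. No paired analysis was possible because each genotype has 1 library and the result comes from no test.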
